A study of Mus musculus with 4 samples.

Results

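The ETS family factors described here are 10 transcription factor genes, Ets1, Ets2, Fli1, Elf1, Elf2, Elf4, Gabpa, Etv6, Spi1 and Spib, seen through the open chromatin around them in lymphoid tissue inducer (LTi) cells. An accessible region, called an island below, was taken as theirs when the nearest end of any protein-coding gene, within 50 kb, belonged to one of them, or when it lay inside the body of one of them. This rule gave 37 of the 16584 islands in the table, and each of the 10 genes had at least 1. Of these, 6 islands entered by the gene body alone, and 4 were shared with a gene outside the family.

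ETS factors bind DNA through a winged helix-turn-helix domain, the ETS domain, that reads a GGAA or GGAT core, and the flanking bases and partner proteins separate one member from another. Many act together with RUNX and AP-1 factors in lymphocytes, while PU.1 (Spi1) and Spi-B (Spib) are best known from myeloid and B cells. LTi cells are innate lymphoid cells that start the formation of lymph nodes and Peyer's patches.

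LTi cells were sorted from Peyer's patches of C57BL/6 mice of 2 genotypes. The Tcf7-KO group (2 libraries) carried floxed Tcf7 alleles (Tcf7fl/fl) and a Cre recombinase, and the control group (Tcf7+/+, 2 libraries) carried intact Tcf7, the gene of the transcription factor TCF-1. Whether controls also carried the Cre, and the age and sex of the mice, are not given in the labels. Each library was made from 300 sorted cells by DNase-seq, in which DNase I (0.3 U, 5 minutes) cuts open chromatin and the fragments are sequenced. The series was designed to compare the genotypes, but each island has 1 count of peak-side reads and 1 of control-side reads, and neither is tied to a library or a genotype in the labels or the header. The genotypes are therefore not compared, there are no replicate values, and a fold below is the peak-side reads over the control-side reads times 0.345, the factor behind the authors' deposited fold.

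Each fold carries an exact (Clopper-Pearson) 95% interval from the 2 read counts, which covers counting error only, since the reads carry no molecular identifiers and can be copies of 1 molecule. Islands with an FDR under 0.05 in the authors' deposited table are described as called. The lowest peak-side count in the table is 8, so the absence of an island does not show closed chromatin. Control-side counts go down to 0 (11 islands). A floor on the peak side alone can raise folds near it, and the intervals and calls do not allow for it. Positions are 1-based mm10 coordinates. Among 12 markers of LTi and other group 3 innate lymphoid cells, 11 had an island, where 55.2% of all protein-coding genes did. They held 717 peak-side and 1031 control-side reads, and Ccr6, a sort marker, had no island. Of their 33 islands 30 were called (90.9%), against 82.3% of all islands. Tnfsf11 (fold 3.79, 2.69 to 5.36), Il1r1 (3.63, 2.78 to 4.75) and Nrp1 (3.15, 1.94 to 5.13) had the largest pooled folds of these markers. Lta (1.65, 1.10 to 2.44) and Ltb (1.86, 1.19 to 2.88) were among those below the pooled fold of all islands, 1.91.

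The ETS genes differed widely in how many islands they held. Etv6 had 11 and Ets1 had 9, which together make 20 of the 37. Elf2 had 4, Fli1 and Elf1 had 3 each, Elf4 and Spi1 had 2 each, and Ets2, Gabpa and Spib had 1 each. Of all 21887 protein-coding genes, 12071 (55.2%) had an island by the same rule. Among those 12071 genes, 1 had more islands than Etv6 and 8 had more than Ets1. By summed peak-side reads, 23 genes stood above Etv6, 52 above Ets1 and 136 above Elf2, followed by Elf1 (1951 above it), Fli1 (2596), Gabpa (3276), Elf4 (5115), Ets2 (6823), Spib (8024) and Spi1 (9493). Long genes can hold more islands, so each was also set beside genes of 0.5 to 2 times its length. The median such gene had 1 island. As many islands as Etv6 were found at 4 of 1715 genes of its length class (0.233%), and as many as Ets1 at 9 of 3363 (0.268%). The space between a gene and its neighbours was not matched, and 3 of the 9 Ets1 islands lay outside the gene. Elf2 was matched or exceeded by 250 of 4338 (5.76%), Fli1 by 467 of 3377 (13.8%) and Gabpa by 4975 of 7676 (64.8%).

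**Figure D1:**
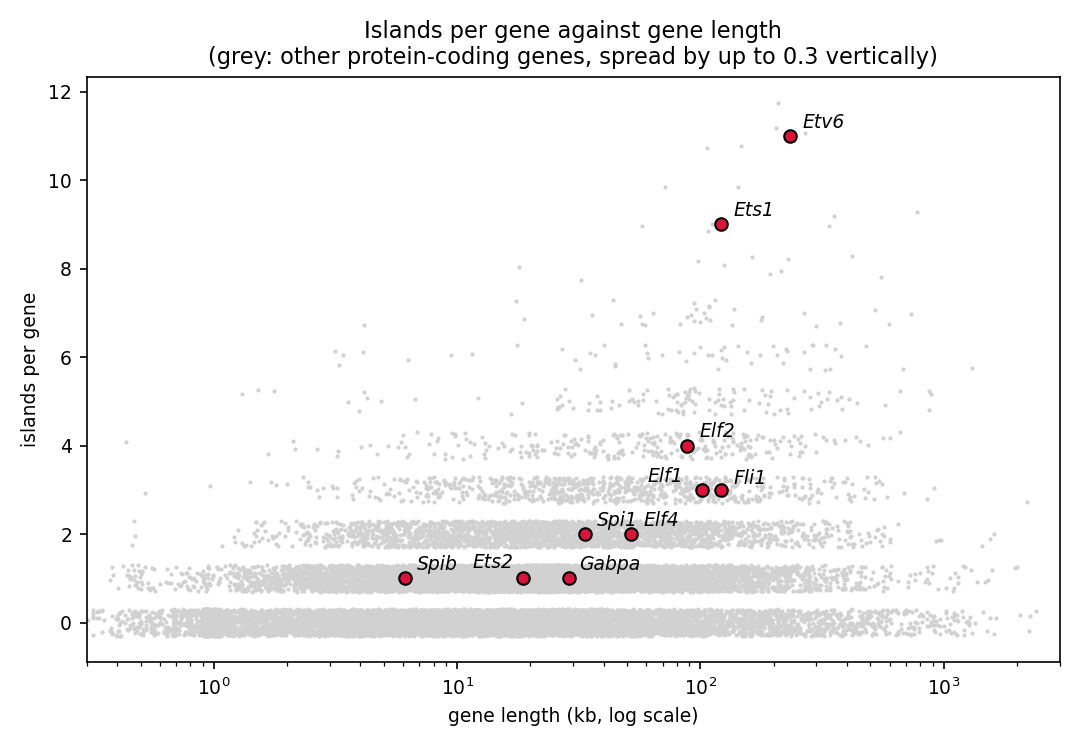
Islands per gene (vertical axis) against gene length in kb (horizontal log axis) for the 10 ETS genes (red, named) and all other protein-coding genes (grey, spread vertically by up to 0.3 to separate them). Etv6 with 11 islands and Ets1 with 9 lie at the upper edge of the cloud, and Ets2, Gabpa and Spib with 1 island lie in its dense lower part.

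The table of RefSeq promoter windows (GRCm38.p6, the assembly behind mm10) lists 10 starts for 7 of the genes, each as a window from 250 bases before to 50 bases after the start. Ets1, Fli1 and Spi1 had no entry. Of the 10 windows, 8 overlapped an island, where 9669 of the 21263 windows of all protein-coding genes did (45.5%). Of the 3 genes with more than 1 listed start, Elf4 alone had a start without an island. The windows printed are those of these 3 genes and that of Gabpa, the one window with CCGGAA. They are written 5′ to 3′ on the gene's strand, and capitals mark each match to one of 6 short motifs on either strand, which are CCGGAA (an ETS core with its flank), GAGGAA (the PU-box core), TGTGGT (the RUNX core), CTTTGAA and CTTTGAT (TCF and LEF cores) and TGACTCA (AP-1).
Elf1, first start (chr14:79480944-79481243, plus strand): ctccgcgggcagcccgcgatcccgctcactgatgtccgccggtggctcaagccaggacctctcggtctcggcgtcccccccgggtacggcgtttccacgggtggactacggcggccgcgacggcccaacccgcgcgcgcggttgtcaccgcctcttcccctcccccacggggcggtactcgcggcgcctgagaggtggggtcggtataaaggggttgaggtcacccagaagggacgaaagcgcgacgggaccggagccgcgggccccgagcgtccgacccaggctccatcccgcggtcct
Elf1, inner start (chr14:79515424-79515723, plus strand): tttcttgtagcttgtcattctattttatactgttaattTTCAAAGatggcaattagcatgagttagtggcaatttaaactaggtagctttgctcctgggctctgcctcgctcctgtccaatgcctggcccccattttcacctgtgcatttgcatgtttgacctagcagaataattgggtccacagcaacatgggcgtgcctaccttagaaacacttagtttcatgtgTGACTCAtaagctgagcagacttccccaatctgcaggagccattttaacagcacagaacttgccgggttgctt
Elf2, first start (chr3:51340595-51340894, minus strand): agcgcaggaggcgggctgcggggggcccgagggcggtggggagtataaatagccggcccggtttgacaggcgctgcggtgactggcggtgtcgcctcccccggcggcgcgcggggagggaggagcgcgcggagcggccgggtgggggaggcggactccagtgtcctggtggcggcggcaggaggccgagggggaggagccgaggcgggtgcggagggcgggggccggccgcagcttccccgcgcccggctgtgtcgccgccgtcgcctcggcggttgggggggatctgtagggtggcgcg
Elf2, inner start (chr3:51277465-51277764, minus strand): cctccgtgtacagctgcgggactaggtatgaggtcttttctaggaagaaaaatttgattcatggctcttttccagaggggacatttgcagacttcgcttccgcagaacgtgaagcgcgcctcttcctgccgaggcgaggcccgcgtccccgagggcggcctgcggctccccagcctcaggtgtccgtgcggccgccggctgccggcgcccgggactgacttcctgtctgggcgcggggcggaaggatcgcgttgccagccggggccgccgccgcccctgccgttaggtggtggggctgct
Elf4, first start (chrX:48463083-48463382, minus strand): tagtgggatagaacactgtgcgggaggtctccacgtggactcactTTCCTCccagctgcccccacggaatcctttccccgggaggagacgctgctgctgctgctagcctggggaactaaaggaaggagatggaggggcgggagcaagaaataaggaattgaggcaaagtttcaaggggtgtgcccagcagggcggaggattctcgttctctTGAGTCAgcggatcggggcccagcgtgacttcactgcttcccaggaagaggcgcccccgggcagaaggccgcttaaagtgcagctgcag
Elf4, inner start (chrX:48454270-48454569, minus strand): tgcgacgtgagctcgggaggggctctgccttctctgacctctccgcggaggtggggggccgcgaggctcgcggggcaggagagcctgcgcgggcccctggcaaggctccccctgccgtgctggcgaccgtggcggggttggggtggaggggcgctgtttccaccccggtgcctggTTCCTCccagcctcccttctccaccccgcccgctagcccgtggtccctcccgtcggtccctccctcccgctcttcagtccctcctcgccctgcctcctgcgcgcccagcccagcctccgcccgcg
Gabpa (chr16:84834874-84835173, plus strand): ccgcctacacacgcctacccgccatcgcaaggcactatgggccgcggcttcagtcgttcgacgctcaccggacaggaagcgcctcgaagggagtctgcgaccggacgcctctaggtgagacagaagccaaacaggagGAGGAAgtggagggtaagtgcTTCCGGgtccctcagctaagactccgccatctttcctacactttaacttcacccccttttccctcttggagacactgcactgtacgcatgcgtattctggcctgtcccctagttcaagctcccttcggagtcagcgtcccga

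Both listed starts of Elf1 and both of Elf2 lay under an island, while Elf4 had one at its inner start alone. Of 2761 genes with 2 or more listed starts, 1206 (43.7%) had an island at 2 or more of them. The 2 windows of Elf1 differ in composition, with 73.0% G and C and 43 CpG sites at the first start and 44.7% and 3 CpG sites at the inner one. For Elf2 the values are 78.7% and 42 CpG sites at the first start and 67.0% and 31 at the inner one. The Elf4 window under an island has 75.3% G and C and 29 CpG sites, and the one without has 60.0% and 14. Over all windows of protein-coding genes the median was 62.3% G and C with an island and 50.3% without.

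CCGGAA occurred in 1 of the 10 windows, that of Gabpa, where it stands on the opposite strand 92 bases before the start. All protein-coding windows held it in 18.7%, those with an island in 32.1% and those without in 7.49%. GAGGAA occurred in 3 of the 10 (27.4% of all windows), namely at Gabpa 113 bases before the start and at both Elf4 starts. TGACTCA occurred at the inner start of Elf1, 23 bases before it, and at the first start of Elf4, 39 bases before it (2 of 10, and 4.66% of all windows). A TCF or LEF core occurred at the inner start of Elf1 alone, as CTTTGAA 212 bases before it (1 of 10, and 7.57% of all windows), and TGTGGT in none (15.0% of all). None of these matches overlaps another. A match describes the letters of the window and shows no binding.

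Taking all 37 islands, 28 (75.7%) were called in the authors' deposited table, against 82.3% of all 16584 islands. The deposited p treats the scaled control side as free of error. In a two-sided exact binomial test that counts the error of both sides, adjusted by Benjamini-Hochberg over all islands, 24 of the 37 (64.9%) passed with more peak-side reads, against 53.5% of all islands. The ETS islands lie below the background by the first rule and above it by the second, so the 2 counts do not give the same order. Neither rule allows for the floor of 8 reads on the peak side. Their median fold was 2.22 (interquartile range 1.66 to 3.48), against 2.01 (1.61 to 2.62) for all islands. Pooled, they had 685 peak-side and 927 control-side reads, a fold of 2.14 (1.94 to 2.37). These counts rest on the deposited factor of 0.345. With a factor from the summed reads of all islands (0.659) or from the median ratio (0.692), 6 or 4 of the 37 were called (16.2% or 10.8%), against 9.19% or 6.61% of all islands, and the pooled folds of Elf1 (0.894 or 0.851) and Elf2 (0.907 or 0.864) fell below 1.

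Most ETS islands lay inside genes and far from gene ends. Within 1 kb of a gene end were 5 of the 37 (13.5%), against 55.7% of all islands, 27 lay elsewhere within a member gene and 5 between genes. At more than 10 kb from any gene end were 25 (67.6%), against 25.3% of all. Of the 37, 6 entered by the gene body alone, all of them more than 10 kb from a gene end, and 20 belong to 2 long genes, Etv6 and Ets1. Why the share differs was not tested. The ETS islands also held fewer reads, with a median of 14 peak-side and 21 control-side reads, against 18 and 27 in all islands. The 32 away from gene ends had a median fold of 2.57, against 2.32 for all such islands. With under 20 peak-side reads the medians were 2.49 (27 ETS islands) and 2.42 (5750 of all islands).

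**Figure D2:**
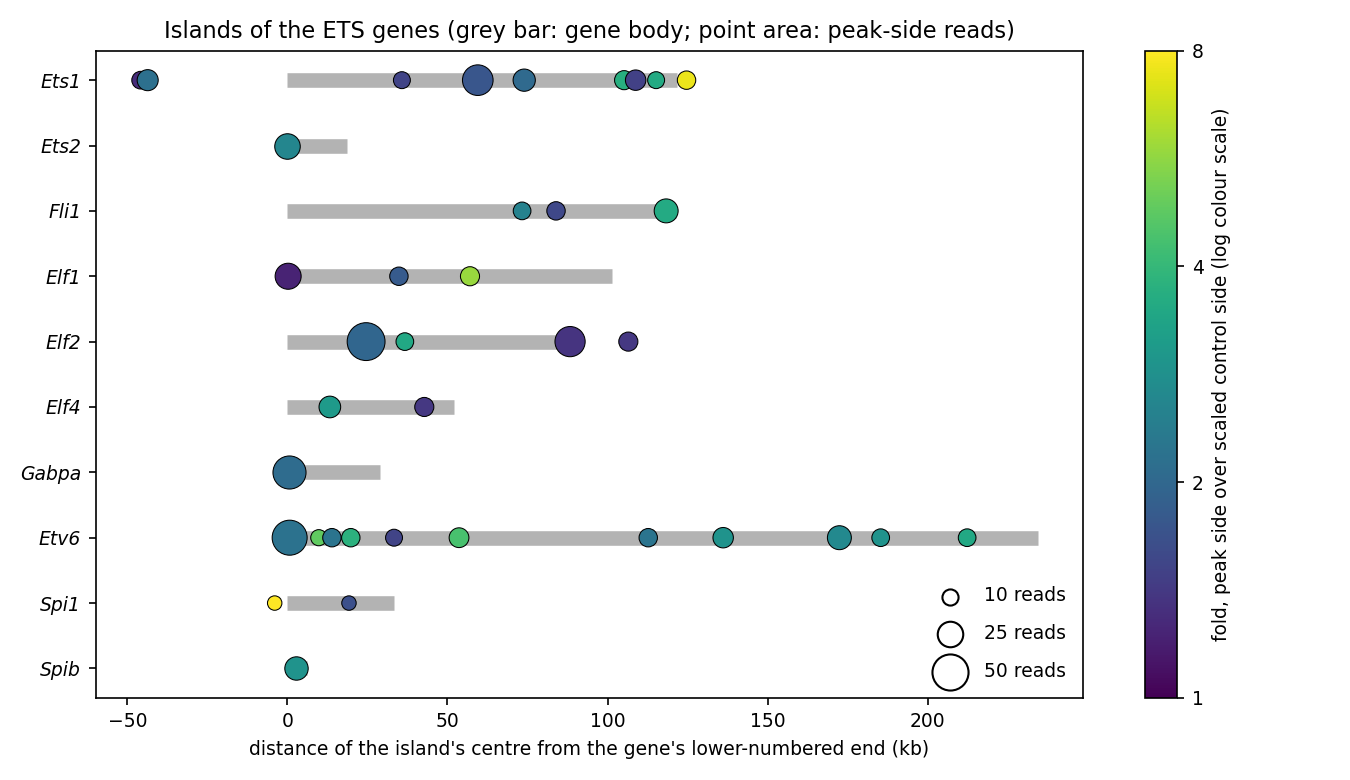
Islands of the 10 ETS genes by distance of their centre from the gene's lower-numbered end (kb), with the gene body as a grey bar, the point area giving the peak-side reads and the colour giving the fold on a log scale from 1 to 8. Etv6 carries islands along its whole length and Ets1 a group near its higher-numbered end, and the yellow Spi1 point has no control-side reads and is drawn at the top of the scale.

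Ets1, a factor of T, B and NK cells that mouse group 2 innate lymphoid cells also need, had 149 peak-side and 214 control-side reads (pooled fold 2.02, 1.63 to 2.50). The gene lies on chromosome 9 (32636241 to 32757820). The island with the most reads (32694401 to 32697000) had 36 and 60 reads (fold 1.74, 1.12 to 2.67). The last 4 islands, from 32740401 to 32762400, stood within 22.0 kb at the higher-numbered end of the gene, with 54 and 56 reads (pooled fold 2.80, 1.89 to 4.14). This grouping was not planned, and its interval does not allow for the choice. Of these 4, the first had 14 and 11 reads (3.69, 1.56 to 8.99), the second 16 and 31 (1.50, 0.765 to 2.82, not called), the third 11 and 9 (3.55, 1.34 to 9.68) and the outermost, 1581 bp beyond the gene, 13 and 5. That outermost island (32759401 to 32762400) had a fold of 7.54 (2.52 to 27.0) and an FDR of 1.24e-07 in the authors' deposited table. Its interval overlaps those of the other 3.

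Ets1 and Fli1 are neighbours, 92.8 kb apart, and 2 islands lie in the gap between them. These islands, 1.0 kb from each other, were 45.4 and 42.8 kb from Ets1 and 46.6 and 48.4 kb from Fli1, so the nearest-end rule gave them to Ets1 by a small margin. They had 12 and 27 reads (fold 1.29, 0.595 to 2.63, not called) and 17 and 23 reads (2.14, 1.08 to 4.19, called). Elsewhere in Ets1, the island at 32670601 to 32673400 (11 and 21 reads, fold 1.52, 0.662 to 3.30) was not called, and the one at 32707801 to 32712600 (19 and 27 reads) had a fold of 2.04 (1.07 to 3.81).

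Fli1, a factor of megakaryocytes, endothelium and other blood lineages, had 3 islands, all inside the gene, with 47 and 56 reads (pooled fold 2.43, 1.62 to 3.65). The one nearest to a gene end (chromosome 9, 32539401 to 32541600) lay 1832 bp inside the higher-numbered end. It had 22 and 18 reads, a fold of 3.55 (1.82 to 7.01) and an FDR of 2.22e-06 in the authors' deposited table. The other 2 had 12 and 14 reads (2.49, 1.05 to 5.79) and 13 and 24 reads (1.57, 0.735 to 3.21, not called). Without the island nearest to the end the pooled fold was 1.91. Ets2, the closest relative of Ets1 and a target of MAP kinase signalling, had a single island over its start (chromosome 16, 95701801 to 95702800) with 25 and 28 reads (fold 2.59, 1.45 to 4.61). Its next island on either side was 113 kb away.

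Etv6, also called TEL, is a transcriptional repressor that blood stem cells need in the bone marrow. It had 184 and 205 reads (pooled fold 2.60, 2.12 to 3.19) over 11 islands. Of these, 10 were called, against 82.3% of all islands, and 8 passed the exact binomial test, against 53.5%. The island at its start (chromosome 6, 134033001 to 134039800) was the broadest of the family at 6800 bp. It had 47 and 62 reads (fold 2.20, 1.47 to 3.26), and it also covers an end of the predicted gene Gm46977. The other 10 islands lay inside the gene, which spans 134035700 to 134270158, and their folds ran from 1.52 to 4.83. A group of 3 stood near the start, and its outer members had 10 and 6 reads (134045001 to 134046000, fold 4.83, 1.59 to 16.2) and 13 and 10 reads (134053801 to 134057200, 3.77, 1.53 to 9.61). The middle one (134048201 to 134051000) had 13 and 17 reads (2.22, 0.991 to 4.85), and so had the island at 134147401 to 134149400. Both were called but did not pass the binomial test. Deeper in the gene, the island at 134087801 to 134090800 had 15 and 10 reads (fold 4.35, 1.83 to 10.8). The 2 with the most reads among those beyond it had 22 and 24 (134207001 to 134209200, 2.66, 1.42 to 4.95) and 16 and 16 (134171201 to 134172400, 2.90, 1.36 to 6.20). The island at 134067601 to 134070400 (11 and 21 reads, 1.52, 0.662 to 3.30) was not called. All 11 intervals overlap, so no order among the Etv6 islands is shown at 10 to 47 peak-side reads.

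Elf1, Elf2 and Elf4 form the ELF subgroup of the family, and Elf1 and Elf4 act in lymphoid cells. Elf2 had 116 and 194 reads over 4 islands (pooled fold 1.73, 1.37 to 2.19). The island over its inner start (chromosome 3, 51275801 to 51278800) had 55 and 81 reads, the most of any ETS island, and a fold of 1.97 (1.37 to 2.81). The one over the first start (51339801 to 51342200) had 35 and 74 reads (fold 1.37, 0.890 to 2.08), and its FDR of 0.0365 was the highest among the called ETS islands. A narrow island between them (51289201 to 51289600) had 12 and 10 reads (fold 3.48, 1.38 to 8.99). The fourth lay 17.5 kb outside the gene and was not called (14 and 29 reads, 1.40, 0.684 to 2.74).

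Elf1 had 53 and 90 reads over 3 islands (pooled fold 1.71, 1.19 to 2.42). The island over its first start (chromosome 14, 79480401 to 79482400) also covers the start of Wbp4, a splicing factor gene. It had 26 and 62 reads (fold 1.22, 0.738 to 1.95), the lowest among ETS islands, and was not called. The inner-start island (79515401 to 79516600) had 13 and 21 reads (fold 1.80, 0.826 to 3.76). The third, inside the gene at no listed start (79536801 to 79539600), had 14 and 7 reads (fold 5.80, 2.19 to 17.0). Without the first of these the pooled fold of Elf1 was 2.80.

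Elf4, also called MEF, promotes perforin expression in mouse NK cells. The gene lies on chromosome X (48411049 to 48463132), whose number of copies depends on sex. It had 32 and 46 reads over 2 islands (pooled fold 2.02, 1.24 to 3.24). The island at the inner start (48453001 to 48454600) had 14 and 29 reads, a fold of 1.40 (0.684 to 2.74) and was not called. The other (48423001 to 48425600), inside the gene, had 18 and 17 reads (fold 3.07, 1.49 to 6.34). No island lay within 8.53 kb of its first listed start.

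Islands at the gene ends were compared with the other islands of the same gene by a two-sided Fisher's exact test on the reads of both sides, which needs no scaling, with Benjamini-Hochberg adjustment over all 2750 genes that have both kinds. Of these genes 1 passed (0.0364%), Ybx3, which was named after its values were seen, and 309 had an unadjusted p under 0.05. None of the 3 ETS genes with both kinds passed. In Elf1 the gene-end island had a fold of 1.22 and the others 2.80 (adjusted p = 0.361 by Fisher's exact test), in Elf2 the folds were 1.37 and 1.96 (adjusted p = 0.692) and in Etv6 2.20 and 2.78 (adjusted p = 0.802). Over all 2750 genes the median ratio of gene-end to other folds was 0.809.

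The same comparison with islands at listed starts covered 2375 genes, of which 1 passed (0.0421%), Ybx3 again. The start islands of Elf1 together had 39 and 83 reads (fold 1.36, 0.907 to 2.02), and its other island 5.80 (2.19 to 17.0). The unadjusted p was 0.00333 and the adjusted p = 0.232 by the exact test over all 2375 genes. In Elf4 the folds were 1.40 at the start and 3.07 elsewhere (adjusted p = 0.563), in Elf2 1.68 and 1.93 (adjusted p = 0.964), and Etv6 keeps the values above (adjusted p = 0.781). In all 4 genes the start side had the lower fold, and 1613 of the 2375 genes had it too.

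**Figure D3:**
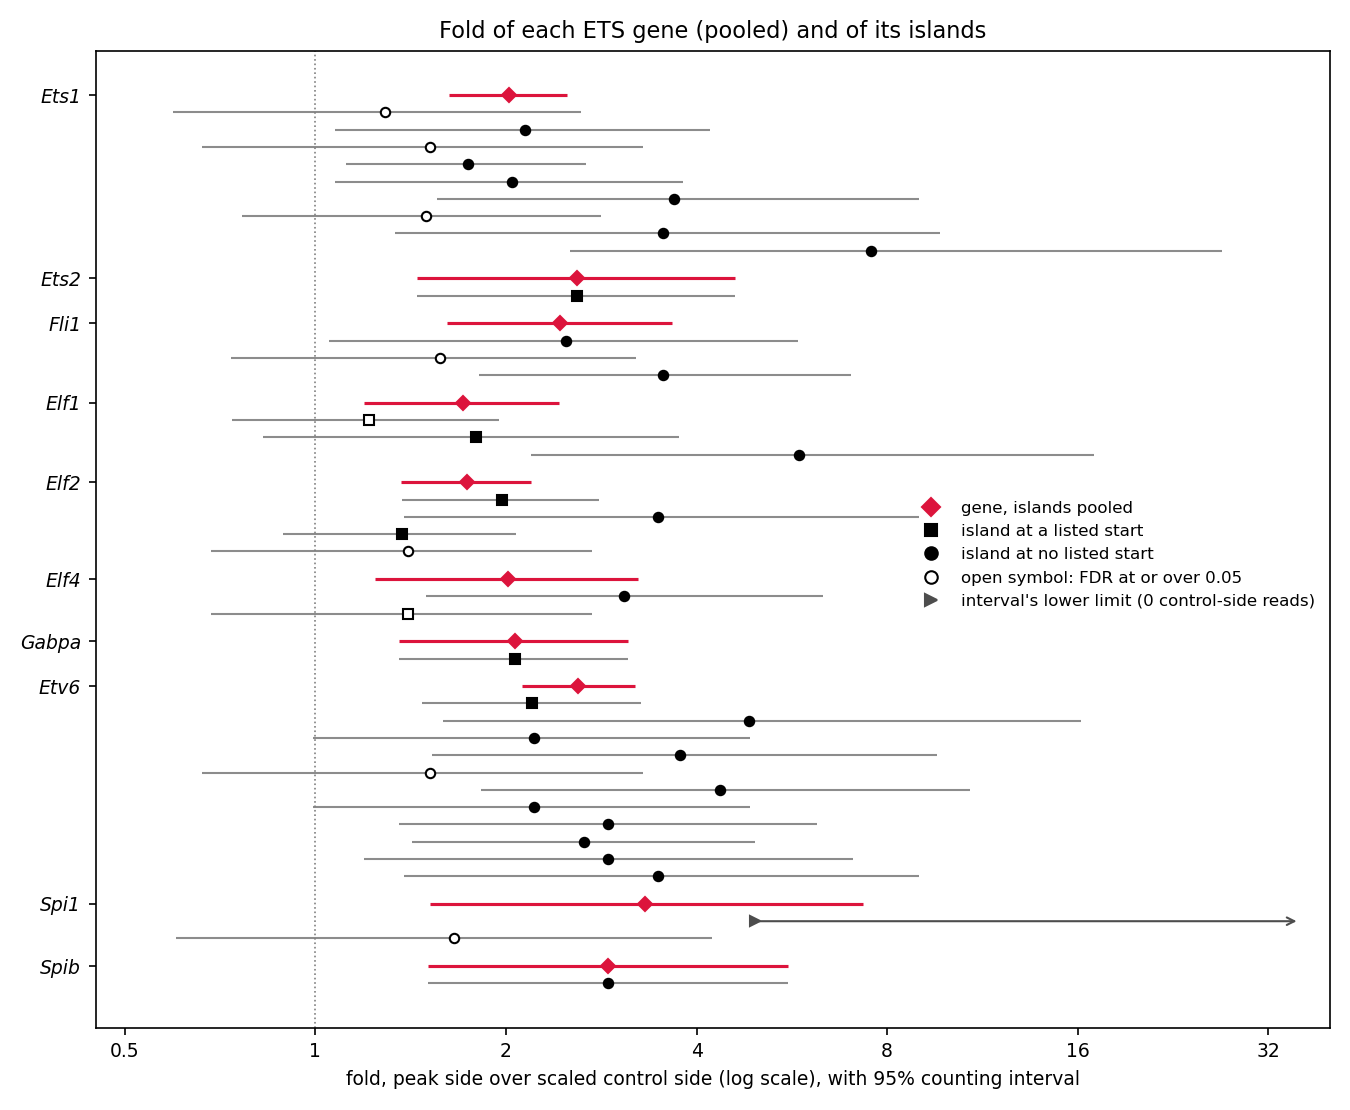
Fold of each ETS gene with its islands pooled (red diamonds) and of each island in order along the chromosome (black), on a log axis with 95% counting intervals. Squares are islands at a listed start, circles islands at no listed start (Ets1, Fli1 and Spi1 have no listed start), open symbols were not called, and the arrow starts at 4.95, the lower limit of the interval of the Spi1 island without control-side reads. The pooled folds run from 1.71 at Elf1 to 3.31 at Spi1, and the intervals of all 10 genes overlap.

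Gabpa encodes the DNA-binding subunit of GABP, a regulator of nuclear genes for mitochondria and of the interleukin-7 receptor gene in T cells. Its single island (chromosome 16, 84834601 to 84836200) covers its start and that of Atp5j, a gene for a subunit of the mitochondrial ATP synthase, so the reads cannot be divided between the 2 genes. It had 42 and 59 reads (fold 2.06, 1.36 to 3.12), and per kb it held 26.2 and 36.9 reads. The next island was 98.0 kb away. Of the genes for its partner subunits, Gabpb1 had 25 and 38 reads (1.91, 1.10 to 3.24) and Gabpb2 had 16 and 51 (0.910, 0.484 to 1.62, not called).

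Spi1 and Spib, the PU.1 subgroup, had few reads. Spi1 had a narrow island 3.77 kb outside its lower-numbered end (chromosome 2, 91078201 to 91078600) with 8 and 0 reads. The exact 95% interval of its fold had a lower limit of 4.95 and no upper limit. Set against the 3 control-side reads that a count of 0 allows, its 8 reads gave a fold of 7.73, which leaves out their own counting error, and the deposited fold rests on 0.25 reads in place of 0. A second island inside the gene (91101401 to 91101800) had 8 and 14 reads (fold 1.66, 0.602 to 4.23), and it was not called. The pooled fold of Spi1 was 3.31 (1.52 to 7.33), and 1.66 with the second island alone. Spib, a factor of B cells, plasmacytoid dendritic cells and the M cells of Peyer's patches, had 1 island inside the gene (chromosome 7, 44527601 to 44529600), 2.47 kb from its listed start. It had 21 and 21 reads (fold 2.90, 1.51 to 5.58).

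Few B cell and myeloid markers had an island, where 55.2% of all protein-coding genes had one. Of 7 B cell markers 2 had one, Cd79b (18 and 17 reads, 3.07, 1.49 to 6.34) and Pax5 (22 and 25 reads, 2.55, 1.37 to 4.72), and Ms4a1, Cd79a, Cr2 and Fcer2a were among those with none. Of 7 myeloid markers 1 had one, Cd14 (11 and 24 reads, 1.33, 0.588 to 2.82, not called), and Csf1r, Itgam, Lyz2, Adgre1, Itgax and Siglech had none. Summed over the lists, B cell markers had 40 and 42 reads and myeloid markers 11 and 24. Of the T cell markers Cd3d alone had an island (17 and 17 reads), and of the 6 markers of NK cells and type 1 innate lymphoid cells 2 had one, of the 6 epithelial and stromal markers 5. The summed reads of these lists were 106 and 191 for the NK list and 133 and 173 for the epithelial and stromal list. The epithelial and stromal list had 9 islands, of which 7 were called (77.8%, against 82.3% of all islands). Their median fold was 2.22, against 2.01 for all islands. The part of other cells in the Spi1 and Spib islands was not tested.

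Some islands close to ETS genes went to a neighbour by the nearest-end rule. Within 50 kb of a member were 5 such islands at Spib, 4 at Elf2, 3 each at Fli1 and Spi1 and 1 at Elf1. The nearest, 3.71 kb beyond Elf1 and over an end of Sugt1, had 37 and 55 reads and a fold of 1.95. At Spi1 the nearest, 10.4 kb away over an end of Slc39a13, had 45 and 72 reads and a fold of 1.81.

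Of 16 other ETS genes, 9 had an island and 6 a called one, where 55.2% of all protein-coding genes had an island. Of their 14 islands 11 were called (78.6%, against 82.3% of all islands). Their median fold was 2.03, against 2.01 for all islands. Elk3 and Elk4, ternary complex factors that act with serum response factor, had 57 and 65 reads over 4 islands (2.54, 1.75 to 3.69) and 52 and 73 over 3 (2.07, 1.42 to 2.99). Etv5, a factor of the PEA3 group, had 48 and 41 reads over 1 island (fold 3.40, 2.19 to 5.28). Etv3, Elk1 and Erg had 1 called island each, Etv1, Erf and Elf3 had 1 that was not called, and Etv2, Etv4, Fev, Ehf, Elf5, Spic and Spdef had none.

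Of 13 partner genes of ETS factors, 12 had an island, where 55.2% of all protein-coding genes did. Of their 35 islands 30 were called (85.7%, against 82.3% of all islands), with a median fold of 2.28, against 2.01 for all islands. Runx3 had 9 islands with 169 and 219 reads (2.24, 1.82 to 2.75), as many islands as Ets1, and Runx1 had 6 with 117 and 168 (2.02, 1.58 to 2.57). Cbfb, the shared RUNX subunit, had 1 with 45 and 72 reads (1.81, 1.22 to 2.67). Of the AP-1 genes, Fos had 196 and 295 reads over 6 islands (1.93, 1.60 to 2.32) and Jun had 120 and 189 over 1 (1.84, 1.45 to 2.33). Irf8 had 26 and 41 reads (1.84, 1.08 to 3.08), and Irf4, the other interferon regulatory factor that pairs with PU.1 and Spi-B, had no island.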

How the data were processed

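DNase-seq was measured in 2 Tcf7-KO and 2 control libraries. The build mm10 and the tools SICER 2.0 and Bowtie2 2.4.2 are named per the submitters' processing notes. Columns for coordinates, reads of the peak and control sides, p-value, fold and FDR exist per the file headers. The deposited counts are whole reads, not normalized. All 16584 deposited folds equal peak-side reads over 0.345 times the control-side reads, with 0.25 reads in place of 0 (relative tolerance 1e-05). All deposited p-values equal the Poisson tail above, and not including, the observed count (tolerance 1e-06), or 1 where the fold is under 1, and the FDR their Benjamini-Hochberg adjustment (largest difference 0.000279). The sources used here give no library totals. Over all islands the sides hold 425134 and 645087 reads. No other column holds values per sample.

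The planned edgeR comparison of genotypes was not run, since no column is tied to a library. Genes came from RefSeq (GRCm38.p6, 21887 protein-coding genes), where all 10 members matched, as did every listed gene but Trac. Tests (scipy 1.17.1, Python 3.11.15) were checked on simulated data. The simulated islands had no floor on the peak-side count. For Fisher's exact test the simulated read counts were larger than those of single islands. Its power at the read counts of the ETS genes was not checked. The orientation of start windows was checked on 717 pairs of opposite strand, which all matched. The text names every member, each one's island with the most reads and lowest FDR, and all islands not called. Members, lists and alternatives were chosen with earlier results of these data known. The driver of the Cre and the single values of 2 listed marker genes are not reported here, and the marker list totals include these genes.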

Additional observations from a re-analysis of the deposited data

How the results depend on the processing

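No paired analysis was possible because neither column belongs to a numbered replicate, and fits by genotype or without single libraries were not run. Every fold rests on the scaling of the control side. With factors from the summed island reads or from the median ratio, which bring the fold of a typical island to about 1 by construction, the median fold of the ETS islands was 1.16 or 1.10 in place of 2.22 and 6 or 4 of the 37 were called in place of 28 (1524 or 1097 of all 16584 islands). The pooled folds turned below 1 for Elf1 (0.894 or 0.851) and Elf2 (0.907 or 0.864), and over the 10 genes they ran from 0.894 to 1.73 or from 0.851 to 1.65. The 6 still called by the first scaling were the Spi1 island outside the gene, the outermost Ets1 island, the third Elf1 island, the Fli1 island nearest its end and the Etv6 islands with folds of 4.83 and 4.35. With at least 20 peak-side reads, 9 of the 10 ETS islands left were called (90%), and the share over all such islands was not counted. At this depth 8 genes had an island, and 0 of 499 genes differed between gene ends and other islands in place of 1. Called ETS islands numbered 26 (70.3%) at an FDR under 0.01, against 64.2% of all islands, and 24 (64.9%) by the exact binomial test, against 53.5%. With the observed count kept in the Poisson tail, 27 (73.0%) were called, against 75.7%. This alternative was added after seeing the data, as was the comparison at listed starts. Other gene windows left fewer ETS islands. Called were 27 of 34 (79.4%) within 10 kb, 25 of 32 (78.1%) within the gene body and 1 kb, and 22 of 31 (71%) by the nearest end alone. The share over all islands does not depend on the gene window and was 82.3%. Leaving out the island with the most reads gave no value for Ets2, Gabpa and Spib. Depth limits single islands: most ETS islands had under 20 peak-side reads (27 of 37), and 13 intervals reached 1 or below.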
